A study of Mus musculus with 14 samples.

Results

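The 8 genes Rgs1, Rgs2, Rgs3, Rgs10, Rgs14, Rgs16, Rgs18 and Rgs19 encode regulators of G protein signalling (RGS proteins). They were chosen by name, with earlier results of these data known. All 8 were found by symbol among the 24463 genes listed in each of 14 RNA-seq libraries. The libraries came from mouse leukemic stem cells (LSCs) in a model of chronic myeloid leukemia, and levels were given as FPKM (fragments scaled by gene length and library size). The cells were bone marrow cells depleted of mature lineages, grown with stem cell factor (50 ng/ml), thrombopoietin (20 ng/ml) and 15% serum. A retrovirus for p210 BCR-ABL, the fusion kinase of the disease, was added 2 times with 24 h between, and cells were sorted 48 h after isolation as lineage-negative cells positive for c-Kit, Sca1 and GFP. All 5 groups carried BCR-ABL.

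The dKO group (n = 3) came from untreated Tcf1/Lef1-deficient marrow, which lacks a pair of DNA-binding partners of beta-catenin. The PGE1 group (n = 3) and the PGE2 group (n = 2) were LSCs from control marrow exposed for 6 h to prostaglandin E1 or prostaglandin E2, each at 20 µM. The DMSO group (n = 3) received the vehicle for the same 6 h, and the WT group (n = 3) was untreated wild-type cells. No source used here gives the age of the mice, the deleted exons or the promoter that drove any Cre. Since no label ties a replicate to an animal or culture of its own, the p-values speak for the spread between these libraries alone, and that spread may be technical.

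RGS proteins switch G protein signals off. A receptor that binds its ligand loads a Galpha subunit with GTP and frees it from Gbeta-Ggamma, and an RGS protein speeds up the hydrolysis of that GTP, so the subunits rejoin. In blood cells most chemokine receptors signal through Gi, while prostaglandin E2 acts on receptors of the Gs, Gi and Gq classes, and several Rgs genes are known to be induced by the signals that their proteins later dampen. Rgs1, Rgs2, Rgs3, Rgs16 and Rgs18 belong to the small R4 class, Rgs10 and Rgs14 to the R12 class and Rgs19 to the RZ class.

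RefSeq promoter windows (GRCm38.p6, 250 bases before the start site to 50 after it) were at hand for Rgs2, Rgs3, Rgs10, Rgs16 and Rgs19, 5 of the 8 genes, with 8 windows in all. The windows of Rgs2, Rgs16 and Rgs10 are shown because these genes moved in different ways: Rgs2 was lower in dKO cells and higher after PGE1, Rgs16 was nearly without reads in dKO cells, and Rgs10 was lower in dKO cells with no rise after PGE1. The Rgs2 window lies at chr1:144004100-144004399 on the minus strand, the Rgs16 window at chr1:153740103-153740402 on the plus strand and the Rgs10 window at chr7:128418123-128418422 on the minus strand. Capitals mark the letters of the short cAMP response element, TGACG, on either strand.
Rgs2: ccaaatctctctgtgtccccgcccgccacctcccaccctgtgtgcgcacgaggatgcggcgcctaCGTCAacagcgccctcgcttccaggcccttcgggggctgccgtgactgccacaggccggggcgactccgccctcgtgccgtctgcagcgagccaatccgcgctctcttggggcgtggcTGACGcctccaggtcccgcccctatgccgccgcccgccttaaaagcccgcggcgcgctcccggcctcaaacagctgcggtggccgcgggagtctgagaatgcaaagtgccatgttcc
Rgs16: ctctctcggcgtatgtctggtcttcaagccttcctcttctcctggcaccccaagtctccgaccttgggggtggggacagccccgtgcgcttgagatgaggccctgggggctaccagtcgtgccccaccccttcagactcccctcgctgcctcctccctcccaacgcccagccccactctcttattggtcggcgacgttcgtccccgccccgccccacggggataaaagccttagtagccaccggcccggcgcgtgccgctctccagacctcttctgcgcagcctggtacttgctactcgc
Rgs10: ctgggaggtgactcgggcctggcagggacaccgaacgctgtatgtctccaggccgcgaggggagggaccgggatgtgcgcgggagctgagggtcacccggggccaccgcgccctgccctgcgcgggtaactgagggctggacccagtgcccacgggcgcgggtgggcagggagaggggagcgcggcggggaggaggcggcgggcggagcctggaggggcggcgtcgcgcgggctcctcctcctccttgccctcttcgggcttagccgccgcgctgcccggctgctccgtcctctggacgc

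The short element TGACG occurred 2 times in the Rgs2 window, starting 185 and 67 bases before the start site, and in 20.8% of the 32851 RefSeq windows of the same length. None of the other 7 windows held it. The full element TGACGTCA, which contains the short one, was in 1.79% of all windows, the AP-1 letters TGANTCA in 7.81% and the Tcf/Lef letters CTTTGA in 16% (both strands for each). None of the members' 8 windows held any of these 3. The Rgs2 matches overlapped no other motif searched, and a match or its absence describes only the letters of this window. The content of G and C was 70% for Rgs2, 66% for Rgs16 and 76% for Rgs10, 49.7% and 58.7% for the 2 windows of Rgs3, and 53.3%, 72.7% and 66.7% for the 3 windows of Rgs19, against a median of 52.7% over all windows.

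Library totals, recovered from the FPKM steps, were 19042213 to 22708474 reads in the treated groups and 31268116 to 33813809 reads in the untreated ones. Reads in genes ran from 11328491 to 13413769 in the treated libraries and from 19048285 to 20628189 in the untreated ones. For genes of 1000 to 10000 reads, pairs of libraries within a group varied by 1.72 to 31.9 times counting noise. It was highest in pairs with PGE1 replicate 2 (28.8 and 31.9), and stood at 12.1 and 14.1 in pairs with DMSO replicate 1 and at 9.05 and 9.39 in pairs with dKO replicate 1. The genotype field gives wild type for dKO replicate 1 and Tcf1/Lef1-deficient for DMSO replicate 1, against their titles. Tcf7, which encodes Tcf1, stood at 0.0219 to 0.142 FPKM in the 3 dKO libraries, against 1.15 to 1.48 FPKM in WT, and at 0.8497 to 1.53 FPKM in the 3 DMSO libraries, so in both libraries it went with the title, and titles set the groups. Lef1 averaged 0.151 ± 0.0411 FPKM in dKO cells, against 0.283 ± 0.0524 FPKM in WT cells (SD, n = 3 each). Of the sorting markers, Kit averaged 23.0 to 42.2 FPKM over the 5 groups. Ly6a, which encodes Sca1, averaged 3.12 ± 0.358 FPKM in dKO cells, against 11.3 ± 1.201 FPKM in WT cells (SD, n = 3 each). The mature-lineage genes Cd3e and Ly6g were below 1 FPKM in every group mean, while Itgam, a myeloid lineage gene, was at 30.6 to 62.7 FPKM. Ly6g does not stand for other late neutrophil genes, among them Ngp at 261 FPKM and S100a8 at 608 FPKM in WT cells. In these bulk samples, fewer cells of a type and less RNA per cell cannot be told apart.

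Rgs19, a regulator of Gi first found as a Galpha-interacting protein, was the most abundant of the 8 genes per gene length in every group but PGE1. The summed level of the 8 genes was 71.2 ± 2.21 FPKM in dKO, 193 ± 23.7 in PGE1, 124 ± 0.870 in PGE2, 146 ± 5.15 in DMSO and 112 ± 2.42 FPKM in WT (SD; n = 3, and n = 2 for PGE2). Library sums of these groups did not overlap. Rgs1 and Rgs2 together made up 8.02% ± 1.18 of the sum in dKO and 50.3% ± 0.936 in PGE1. They made up 20.6% ± 0.654 in PGE2, 25.6% ± 0.166 in DMSO and 18.4% ± 0.780 in WT. Rgs19 took 52.2% ± 1.34 of the sum in dKO and 20.8% ± 1.37 in PGE1, against 36.2% ± 0.527 in WT. Its share was 36.2% ± 1.498 in PGE2, which overlapped with WT, and 33.8% ± 0.174 in DMSO. The share of Rgs14 in dKO (10.8% ± 0.497) overlapped with those in PGE2 (11.3% ± 0.146) and DMSO (10.9% ± 0.310).

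**Figure D1:**
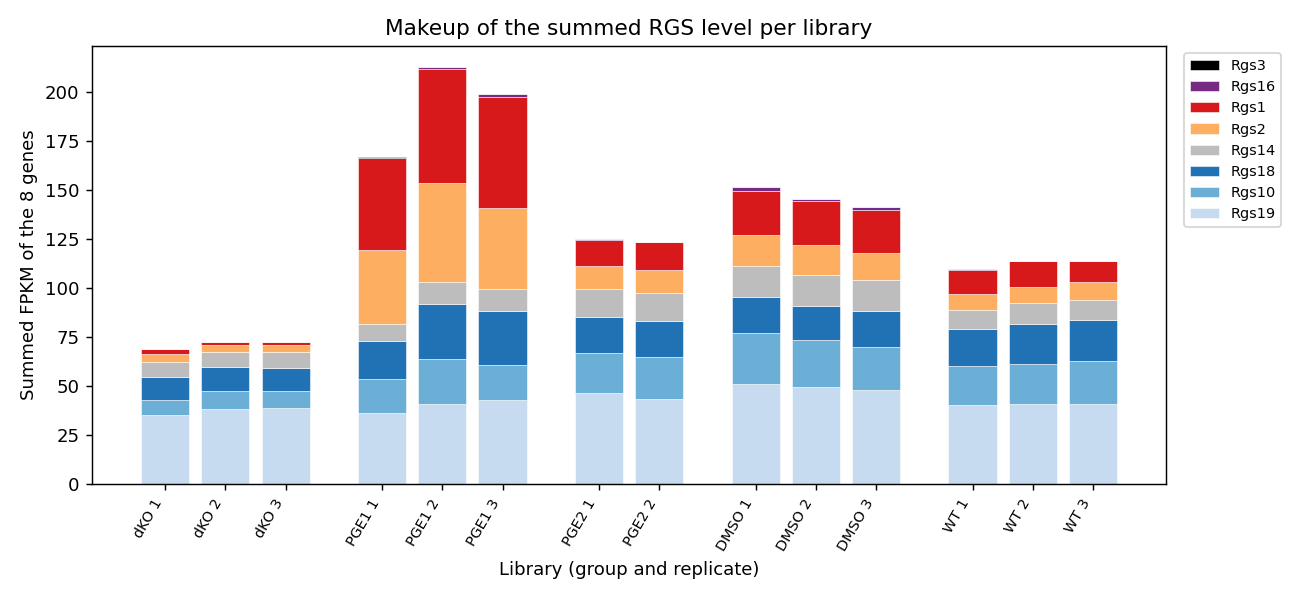
Stacked bars give the summed FPKM of the 8 genes in each of the 14 libraries (y axis), with 1 colour per gene and libraries ordered by group and replicate (x axis). The dKO sums are 68.7 to 72.6 FPKM with a thin Rgs1 layer, and the PGE1 sums are 167 to 213 FPKM with Rgs1 and Rgs2 together making up 49.3% to 51.1%.

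The first comparison set dKO against WT cells and addressed which Rgs transcripts differ where Tcf1 and Lef1 are lacking. Rgs1, Rgs2, Rgs10, Rgs14 and Rgs18 fell in dKO cells, Rgs1 by the widest margin of these 5, and Rgs16 had 1 read in all. Rgs19 was close to the WT level. Of 6 members with a mean of at least 1 FPKM, 5 fell and 0 rose by limma on log2(FPKM + 1) (adjusted p below 0.05), where 40.9% of all 10721 genes tested were called, 18% higher and 22.9% lower. The 6 had at least 1.56 FPKM in every library, so none was tested only because of its WT level. Their median log2 difference was -0.87, against -0.01 over all genes tested.

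Rgs1, which limits the response of B cells to chemokines, was at 2.62, 1.56 and 1.57 FPKM in dKO cells, against 12.1, 12.97 and 10.7 FPKM in WT cells. The groups were far apart, 6.24-fold lower in dKO (log2 difference -2.17 ± 0.14 SE, limma adjusted p = 2.43e-05). Rgs2, a regulator known for its preference for Gq, was at 3.82, 3.74 and 3.77 FPKM in dKO cells, against 8.63, 8.44 and 9.21 FPKM in WT cells. It was 2.32-fold lower (log2 difference -1.03 ± 0.05, limma adjusted p = 6.86e-06). Rgs18, a regulator of megakaryocytes and platelets, was at 11.9, 12.4 and 11.8 FPKM in dKO cells, against 18.9, 20.8 and 21.1 FPKM in WT cells. It was 1.68-fold lower, with the groups well separated (log2 difference -0.70 ± 0.05, limma adjusted p = 4.69e-05).

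Rgs16, another R4 gene and one induced in activated lymphocytes, had 1, 0 and 0 reads in dKO cells, against 31, 20 and 24 reads in WT cells. The WT level was 0.328 ± 0.0718 FPKM (SD, n = 3), and a count of 0 allows up to 0.0388 FPKM (3 reads) in dKO replicate 3. The ratio of read rates was 0.0133 with a 95% interval of 0.000332 to 0.0763, which covers counting error only. Both Rgs16 and Rgs3 lay below the 1 FPKM minimum, so limma was replaced by an exact permutation test (two-sided, on FPKM), which gave p = 0.1 for Rgs16, the smallest p that 3 against 3 allows. Rgs3, a regulator of Gi and Gq that in longer forms also holds other domains, had 7, 1 and 6 reads in dKO cells, against 12, 13 and 13 reads in WT cells. Its mean was 0.373 of the WT mean, with the same exact permutation p of 0.1. When every gene above 0 was tested by limma, Rgs16 (adjusted p = 0.00116) and Rgs3 (adjusted p = 0.0390) both passed as lower in dKO cells.

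Rgs10, a small regulator of Gi studied in microglia and platelets, was at 7.68, 9.33 and 8.71 FPKM in dKO cells, against 19.8, 20.1 and 21.5 FPKM in WT cells. It was 2.39-fold lower (log2 difference -1.17 ± 0.07, limma adjusted p = 1.67e-05). Rgs14, which joins an RGS domain to Ras-binding and GoLoco motifs, was at 7.74, 7.44 and 7.90 FPKM in dKO cells, against 9.36, 10.3 and 10.1 FPKM in WT cells. That was the smallest of the 5 falls, 1.29-fold (log2 difference -0.33 ± 0.05, limma adjusted p = 0.00215). Rgs19 was at 34.9, 37.9 and 38.8 FPKM in dKO cells, against 40.4, 40.9 and 40.9 FPKM in WT cells. The groups did not overlap, but the difference of -0.13 ± 0.05 missed the threshold (limma adjusted p = 0.0545; 95% interval -0.24 to -0.02). All 8 genes were lower in every dKO library than in every WT library, an ordering shown by 29.6% of the genes tested. In either direction 54.9% were apart. Here and below, such shares leave out genes under the 1 FPKM minimum, while the 8 members include Rgs3 and Rgs16.

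Without dKO replicate 1, the library with the wild-type field, the same 5 genes fell (Rgs1 by 2.33 and Rgs14 by 0.33 on the log2 scale). Rgs14 lost its call with the 3 WT libraries averaged into 1 sample (limma adjusted p = 0.0805), and Rgs19 gained one without dKO replicate 3 (0.0424) and after quantile normalization (0.00923). Over all called genes, the share higher in dKO was 44.1% on the deposited scale, 60.2% with quantile normalization and 56.1% with median-of-ratios scaling, while the 6 members kept their direction. Cell type markers also differed. All 13 monocyte and macrophage markers tested were lower (summed level 220 to 250 FPKM in dKO libraries, 969 to 1005 FPKM in WT libraries), as were all 11 of 11 megakaryocyte and platelet markers (59.2 to 115 FPKM in dKO, 245 to 266 FPKM in WT). Of 8 mast cell and basophil markers 6 were lower (89.0 to 101 FPKM in dKO, 177 to 185 FPKM in WT), and of 9 late neutrophil markers 7 were lower and 1 higher (1343 to 1931 FPKM in dKO, 1495 to 1512 FPKM in WT). No marker of these 4 lists was at 0 throughout either group. The erythroid list (3 of 5 tested lower) and the dendritic cell and MHC class II list (4 of 5 lower) had no member that rose. Lymphoid genes were mixed. Of 4 tested B cell markers 2 were higher and 0 lower, namely Vpreb1 (3.34 FPKM in dKO, 1.03 FPKM in WT) and Igll1 (4.02 FPKM in dKO, 1.03 FPKM in WT). Vpreb1 overlapped between the groups, and Ms4a1, too low to test, was at 0 in all dKO libraries. The 1 tested marker of T and natural killer cells, Nkg7, was higher (87.3 FPKM in dKO, 67.3 FPKM in WT). Of that list's genes too low to test, Cd3e, Cd3d, Cd3g, Cd8a and Ncr1 were at 0 in all dKO libraries. Their WT means were at most 0.129 FPKM. Klrb1c was lower in dKO without overlap, and Cd4 was higher (0.498 FPKM in dKO, 0.0860 FPKM in WT). All 6 tested genes of the stem and progenitor list were lower as well (89.2 to 94.6 FPKM in dKO, 141 to 147 FPKM in WT). The Y-linked genes Ddx3y, Eif2s3y, Kdm5d and Uty were at 0 in all dKO libraries, against 8.45 ± 0.646 FPKM of Ddx3y in WT. The X-linked gene Xist averaged 21.9 ± 8.29 FPKM in dKO and 10.1 ± 0.385 FPKM in WT (SD, n = 3 each). The WT libraries thus held both Xist and Y-linked reads. A difference in the sex of the mice cannot be told apart from genotype here. The comparison of dKO with WT shares its WT libraries with that of DMSO and WT. The part of these differences in the Rgs values was not tested.

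**Figure D2:**
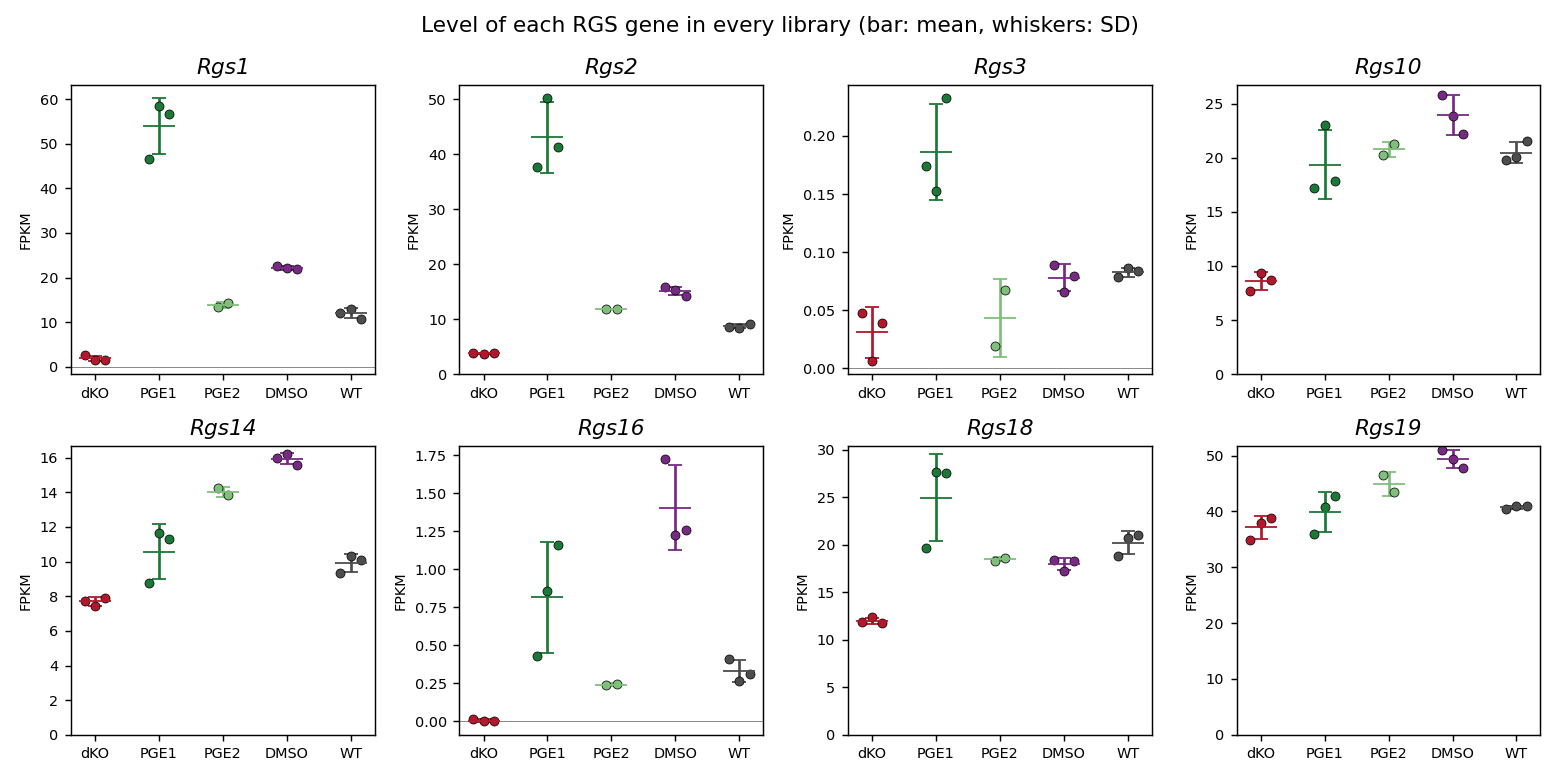
Each panel gives the FPKM of 1 gene (y axis, linear, separate scale per panel) in the dKO, PGE1, PGE2, DMSO and WT libraries (x axis), with points for libraries, a bar for the mean and whiskers for the SD. Rgs1 and Rgs2 are lowest in dKO (means of 1.92 and 3.78 FPKM) and highest in PGE1 (53.9 and 43.1 FPKM), while Rgs19 lies between 34.9 and 50.9 FPKM in all libraries.

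The second comparison set PGE1 against its vehicle. Prostaglandin E1 acts on the prostaglandin E receptors and also on the prostacyclin receptor, which raises cAMP through Gs. Rgs1 and Rgs2 rose and became the most abundant Rgs genes, Rgs18 rose less, and Rgs10, Rgs14 and Rgs19 fell. Of 6 members tested 3 rose and 3 fell, in a comparison where 49.1% of all 11242 genes were called, 23.6% higher and 25.5% lower. Of all 8 members, 7 did not overlap between the groups, 3 of them lower, where 57.2% of the genes tested did not overlap and 29.2% were lower. The members' median log2 difference was 0.07, against 0.01 over all genes tested.

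Rgs1 was at 46.7, 58.4 and 56.7 FPKM after PGE1, against 22.7, 22.1 and 21.8 FPKM after DMSO. Every PGE1 library exceeded every DMSO library, by 2.43-fold on average (log2 difference 1.24 ± 0.09 SE, limma adjusted p = 1.16e-05). Rgs2 was at 37.7, 50.3 and 41.3 FPKM after PGE1, against 15.8, 15.4 and 14.3 FPKM after DMSO. It was 2.85-fold higher, the largest rise of the members tested (log2 difference 1.44 ± 0.10, limma adjusted p = 1.14e-05). Rgs18 was at 19.7, 27.7 and 27.6 FPKM after PGE1, against 18.4, 17.2 and 18.3 FPKM after DMSO. PGE1 replicate 1 lay close to the DMSO libraries, and the mean was 1.39-fold higher (log2 difference 0.44 ± 0.12, limma adjusted p = 0.0147). This call was lost without DMSO replicate 2 (adjusted p = 0.0507) or PGE1 replicate 3 (0.0509).

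Rgs14 was at 8.74, 11.7 and 11.3 FPKM after PGE1, against 15.985, 16.2 and 15.6 FPKM after DMSO. It fell 1.51-fold with no overlap (log2 difference -0.56 ± 0.10, limma adjusted p = 0.00158). Rgs19 was at 36.0, 40.8 and 42.8 FPKM after PGE1, against 50.9, 49.4 and 47.7 FPKM after DMSO. It fell 1.24-fold (log2 difference -0.30 ± 0.07, limma adjusted p = 0.00878). Rgs10 was at 17.2, 23.0 and 17.8 FPKM after PGE1, against 25.8, 23.9 and 22.2 FPKM after DMSO. Its groups overlapped, since PGE1 replicate 2 exceeded DMSO replicate 3, and the 1.24-fold fall was close to the threshold (log2 difference -0.30 ± 0.11, limma adjusted p = 0.0446). The Rgs10 call was lost with no minimum level (adjusted p = 0.0781) and without any 1 library other than PGE1 replicate 2 (adjusted p from 0.0514 to 0.136, and 0.136 without DMSO replicate 1, the library with the conflicting field). The other 5 calls held without DMSO replicate 1.

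Rgs16 and Rgs3 went in opposite directions. Rgs16 was at 0.428, 0.856 and 1.16 FPKM after PGE1, against 1.73, 1.23 and 1.26 FPKM after DMSO (118 reads after PGE1, 215 reads after DMSO). Its PGE1 mean was 0.580 of the DMSO mean, and the groups did not overlap. Rgs3 was at 0.174, 0.152 and 0.233 FPKM after PGE1, against 0.0887, 0.0655 and 0.0795 FPKM after DMSO (55 reads after PGE1, 24 reads after DMSO), 2.39-fold higher. Each gave an exact permutation p of 0.1, the smallest p possible. With no minimum level, limma passed Rgs3 (adjusted p = 0.0145) and not Rgs16 (adjusted p = 0.0830).

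Markers moved here too. Of 13 monocyte and macrophage markers 3 were higher and 8 lower, with sums of 944 to 1206 FPKM after PGE1 and 959 to 1113 FPKM after DMSO. Of 11 megakaryocyte and platelet markers 4 were higher and 2 lower (313 to 425 FPKM after PGE1, 271 to 327 FPKM after DMSO), among the higher ones Itga2b at 89.1 against 43.3 FPKM. Of 9 mast cell and basophil markers 5 were higher and 2 lower (339 to 451 FPKM after PGE1, 347 to 362 FPKM after DMSO), and of 10 late neutrophil markers 6 were lower (1037 to 1603 FPKM after PGE1, 1568 to 1855 FPKM after DMSO). Of these lists' genes, Mcpt4, a mast cell protease, was at 0 in all DMSO libraries. Kit, Meis1 and Gata2 were higher and Cd34 lower among 6 stem and progenitor genes (147.5 to 165 FPKM after PGE1, 129.9 to 134 FPKM after DMSO). Nkg7, a granule gene of natural killer cells, was at 10.4 FPKM after PGE1 and 42.2 FPKM after DMSO. Of the other T and natural killer cell genes, all too low to test, Cd3e, Cd3g, Cd8a and Klrb1c were higher after PGE1 without overlap. They averaged 0.163 to 0.391 FPKM after PGE1 and 0.0170 to 0.0532 FPKM after DMSO, while Cd3d, Cd4 and Ncr1 overlapped. Of 5 sex-linked genes tested, 4 were higher after PGE1 and 1 was lower, where 49.1% of all genes were called. Xist averaged 5.95 FPKM after PGE1 and 10.5 FPKM after DMSO, and Y-linked Eif2s3y 22.2 FPKM after PGE1 and 16.5 FPKM after DMSO. The part of these shifts in the Rgs values was not tested.

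**Figure D3:**
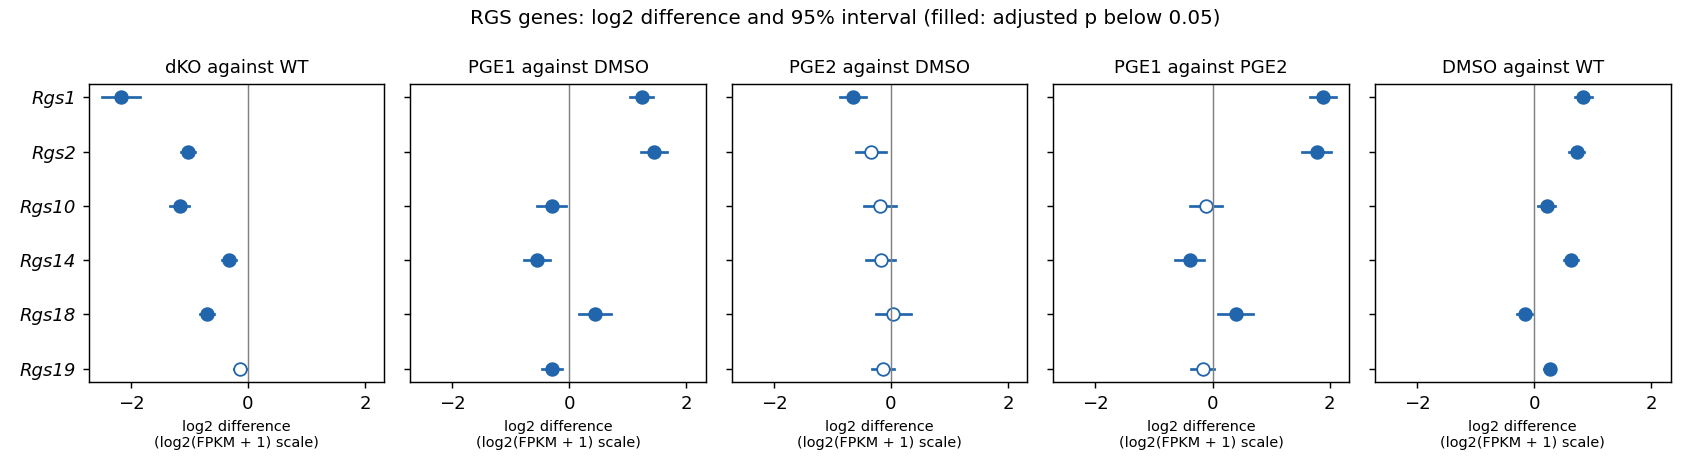
Points give the log2 difference (x axis, log2(FPKM + 1) scale, first-named group minus second) of the 6 genes tested by limma (y axis) in 5 comparisons, lines the 95% interval, and filled points an adjusted p below 0.05. Rgs1 lies at -2.17 for dKO against WT and at 1.24 for PGE1 against DMSO, and Rgs19 lies between -0.30 and 0.27 in all 5.

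The third comparison set PGE2 against DMSO and shares its 3 DMSO libraries with the PGE1 comparison. Fewer Rgs genes passed after PGE2, with 2 libraries, than after PGE1 at this dose and time. Of 6 members tested 1, Rgs1, fell and 0 rose, where 5.57% of the 11242 genes were called, 0.996% higher and 4.57% lower. Rgs1 was at 13.4 and 14.3 FPKM after PGE2, below the lowest DMSO value of 21.8 FPKM. Of all 8 members 6 did not overlap, all lower, where 49.1% of the genes tested did not overlap and 24.1% were lower. Rgs1 was 1.61-fold lower (log2 difference -0.65 ± 0.10 SE, limma adjusted p = 0.00624). With only 1 PGE2 library in the fit, assumed to vary like the other groups, the call was lost (adjusted p = 0.0882 without PGE2 replicate 1 and 0.0590 without replicate 2).

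Rgs2 was at 11.8 FPKM in both PGE2 libraries, below all DMSO libraries (14.3 to 15.8 FPKM). The difference of -0.34 ± 0.11 did not pass (limma adjusted p = 0.125), though it did without PGE1 replicate 2 (0.0184) and with all 14 libraries in 1 fit (0.0359). Rgs16, at 0.236 and 0.247 FPKM after PGE2, was below every DMSO library (1.23 to 1.73 FPKM), with 23 reads after PGE2 and 215 reads after DMSO. It was 5.81-fold lower, the widest gap of the 8 genes in this comparison (exact permutation p = 0.2, the smallest that 2 against 3 allows; limma adjusted p = 0.0367 with no minimum level). Rgs10 (20.3 and 21.2 FPKM), Rgs14 (14.2 and 13.8 FPKM) and Rgs19 (46.5 and 43.4 FPKM) were each below their DMSO libraries without passing (limma adjusted p = 0.407, 0.421 and 0.412). Rgs18 was at 18.3 and 18.6 FPKM and overlapped with DMSO (95% interval of the log2 difference -0.26 to 0.34). Rgs3 also overlapped, with 8 reads after PGE2 and 24 reads after DMSO (exact permutation p = 0.4).

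The count of all genes called in this comparison moved with single libraries. It was 626 with all of them, 1218 without PGE1 replicate 2, 240 and 236 without DMSO replicates 2 and 3, and 156 and 125 without PGE2 replicates 1 and 2. No marker of the megakaryocyte and platelet list passed (0 of 11), and 2 monocyte and macrophage markers were higher and 1 lower of 13 (summed level 1259 to 1264 FPKM after PGE2, 959 to 1113 FPKM after DMSO). The late neutrophil sum was 2122 to 2138 FPKM after PGE2 and 1568 to 1855 FPKM after DMSO, with 1 of 10 markers higher. Of 5 sex-linked genes tested 0 passed, where 5.57% of all genes did. The part of those markers in the Rgs values was not tested.

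PGE1 and PGE2, 1 pair of related compounds, were then compared with each other at the same 20 µM and 6 h. PGE2 has an extra carbon-carbon double bond in its acid side chain, which PGE1 lacks. Rgs1, Rgs2 and Rgs18 were higher after PGE1 than after PGE2, and Rgs14 was lower, 4 of 6 members tested, where 53.9% of 11242 genes were called, 27.2% higher and 26.7% lower after PGE1. Of all 8 members 7 did not overlap, 2 of them lower, where 69.9% of the genes tested did not overlap and 33.7% were lower. The members' median log2 difference was 0.15, against 0.02 over all genes tested. Rgs1 averaged 53.9 ± 6.32 FPKM after PGE1 and 13.8 ± 0.626 FPKM after PGE2 (SD, n = 3 and 2), a 3.90-fold difference (log2 difference 1.88 ± 0.10 SE, limma adjusted p = 6.03e-06). Rgs2 averaged 43.1 ± 6.48 FPKM after PGE1 and 11.8 ± 0.00616 FPKM after PGE2, 3.66-fold apart (log2 difference 1.78 ± 0.11, limma adjusted p = 1.04e-05). For both genes the lowest PGE1 library lay far above the highest PGE2 library.

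Rgs18 averaged 25.0 ± 4.58 FPKM after PGE1 and 18.5 ± 0.217 FPKM after PGE2 (log2 difference 0.40 ± 0.13, limma adjusted p = 0.0320). Rgs14 averaged 10.6 ± 1.59 FPKM after PGE1 and 14.02 ± 0.280 FPKM after PGE2 (log2 difference -0.39 ± 0.11, limma adjusted p = 0.0157). These smaller differences were sensitive to single libraries: Rgs18 missed the threshold without PGE1 replicate 2 (adjusted p = 0.0680), PGE1 replicate 3 (0.0885), PGE2 replicate 1 (0.130) or PGE2 replicate 2 (0.113), and Rgs14 without PGE2 replicate 1 (0.0898) or 2 (0.0671). Rgs10 did not pass (log2 difference -0.11, 95% interval -0.38 to 0.17, limma adjusted p = 0.478), but it did without PGE1 replicate 2 (adjusted p = 0.0331). Rgs19 did not pass either (log2 difference -0.17, 95% interval -0.36 to 0.02, limma adjusted p = 0.112). Rgs16 was 3.37-fold and Rgs3 4.31-fold higher after PGE1 with no overlap, each with an exact permutation p of 0.2, the smallest that 3 against 2 allows. Of 13 monocyte and macrophage markers 1 was higher and 9 were lower after PGE1 than after PGE2 (944 to 1206 FPKM after PGE1, 1259 to 1264 FPKM after PGE2), and of 10 late neutrophil markers 0 were higher and 8 lower (1037 to 1603 FPKM after PGE1, 2122 to 2138 FPKM after PGE2). Of 9 mast cell and basophil markers 6 were higher and 1 lower (339 to 451 FPKM after PGE1, 252 to 253 FPKM after PGE2), and of 11 megakaryocyte and platelet markers 2 were higher and 3 lower (313 to 425 FPKM after PGE1, 344 to 356 FPKM after PGE2). Of 5 sex-linked genes tested, 3 were higher and 1 was lower after PGE1, where 53.9% of all genes were called. Xist averaged 5.95 FPKM after PGE1 and 14.8 FPKM after PGE2. The part of these markers and sex-linked genes in the Rgs values was not tested.

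The DMSO and WT groups are both control cells and differ in the vehicle, the 6 h of treatment, handling and depth, which cannot be told apart. Rgs1, Rgs2, Rgs10, Rgs14 and Rgs19 were higher in DMSO cells and Rgs18 was lower, so all 6 members tested were called, where 56.6% of 11115 genes were, 26% higher and 30.7% lower. Of all 8 members 7 did not overlap, 1 of them lower, where 64.3% of the genes tested did not overlap and 35% were lower. The median log2 difference of the members was 0.45, against -0.03 over all genes tested. Rgs1 averaged 22.2 ± 0.434 FPKM in DMSO and 11.95 ± 1.12 FPKM in WT (SD, n = 3 each; log2 difference 0.84 ± 0.07 SE, limma adjusted p = 2.91e-05). Rgs2 averaged 15.2 ± 0.794 FPKM in DMSO and 8.76 ± 0.402 FPKM in WT (log2 difference 0.73 ± 0.06, with the same adjusted p in limma). Rgs14 averaged 15.9 ± 0.323 FPKM in DMSO and 9.92 ± 0.505 FPKM in WT (log2 difference 0.63 ± 0.05, limma adjusted p = 3.32e-05). Rgs16 had 215 reads in DMSO and 75 reads in WT and averaged 4.28-fold higher, the widest gap of the 8 genes (exact permutation p = 0.1, the smallest possible; limma adjusted p = 0.00101 with no minimum level).

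Rgs19 (log2 difference 0.27, limma adjusted p = 7.05e-04), Rgs10 (0.21, adjusted p = 0.0179) and Rgs18 (-0.16, adjusted p = 0.0336) differed by smaller amounts. Rgs18 missed the threshold without WT replicate 2 (adjusted p = 0.111), WT replicate 3 (0.125), DMSO replicate 2 (0.110) or DMSO replicate 3 (0.0549). Rgs10 missed it without WT replicate 1 (adjusted p = 0.0689) or 2 (0.0630). Rgs19 and Rgs10 also missed it with the WT libraries averaged into 1 sample (adjusted p = 0.0574 and 0.175). Of 9 mast cell and basophil markers 6 were higher and 1 lower (347 to 362 FPKM in DMSO, 177 to 185 FPKM in WT), led by Gzmb at 161 FPKM in DMSO and 38.1 FPKM in WT. Of 13 monocyte and macrophage markers 6 were higher and 4 lower (959 to 1113 FPKM in DMSO, 969 to 1005 FPKM in WT), of 10 late neutrophil markers 4 were higher and 3 lower (1568 to 1855 FPKM in DMSO, 1495 to 1512 FPKM in WT), and of 11 megakaryocyte and platelet markers 3 were higher and 1 lower (271 to 327 FPKM in DMSO, 245 to 266 FPKM in WT). The part of these markers in the Rgs values was not tested. Rgs3 overlapped between the groups (24 reads in DMSO, 38 reads in WT).

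Ordered by group mean, Rgs1 and Rgs2 had the same ranking, PGE1, DMSO, PGE2, WT and dKO, with no overlap between neighbours. Rgs14 and Rgs19 were highest in DMSO and PGE2, and neighbours in their order overlapped between PGE1 and WT for both, and between PGE1 and dKO for Rgs19. Rgs10 was highest in DMSO and lowest in dKO, with PGE2, WT and PGE1 overlapping in between. Rgs18 was highest in PGE1, which overlapped with WT, and lowest in dKO, with PGE2 and DMSO overlapping. Rgs16 ran from DMSO through PGE1, WT and PGE2 to dKO with no overlap between neighbours. Rgs3 was highest in PGE1, with overlap between all the lower neighbours.

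Rgs1, Rgs2, Rgs16 and Rgs18 are on chromosome 1, and Rgs2, Rgs1 and Rgs18 lie there in a run with Rgs13 and Rgs21, in the RefSeq order of GRCm38.p6 (a run looked at after its members' values were seen). Rgs13 and Rgs21 were listed at 0 in all 14 libraries. The 3 other genes of the run each fell in dKO cells and rose after PGE1, against DMSO and against PGE2. They did not move alike elsewhere. In DMSO against WT, Rgs1 and Rgs2 were higher and Rgs18 was lower. After PGE2 Rgs1 fell, while Rgs2 and Rgs18 did not pass (log2 difference -0.34 and 0.04). The share of all genes that fell in dKO cells and rose after PGE1 was not counted. Of the neighbours outside the run, Uchl5, a deubiquitinase beside Rgs2, was higher in dKO (51.7 FPKM in dKO, 45.5 FPKM in WT, limma adjusted p = 0.0284) and lower after PGE1 (26.2 FPKM after PGE1, 32.4 FPKM after DMSO, limma adjusted p = 0.0129). On the far side Brinp3 was listed at 0, and Pla2g4a, a phospholipase that frees arachidonic acid, did not pass in either comparison (18.4 FPKM in dKO, 17.7 FPKM in WT; 17.0 FPKM after PGE1, 15.2 FPKM after DMSO). Ptgs2, the prostaglandin synthase next to it, was at 9.77 FPKM after PGE1 and 5.22 FPKM after DMSO (limma adjusted p = 3.79e-04). In GENCODE vM21, Rgs16 shares 236 of its 2339 exon bases with Gm28513 on the opposite strand. No source used here says whether the counting used strand, so reads of that pair cannot be told apart.

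Of 14 other Rgs family genes in the files, 12 were below 1 FPKM in every library, and 4 of these (Rgs7, Rgs13, Rgs21, Rgs22) were listed at 0 throughout. Rgs12, the largest R12 member, averaged 2.65 ± 0.275 FPKM in dKO and 3.85 ± 0.315 FPKM in WT (log2 difference -0.41, limma adjusted p = 0.00572). It averaged 5.99 ± 0.818 FPKM after PGE1, 3.20 ± 0.309 FPKM after PGE2 and 5.75 ± 0.263 FPKM after DMSO, and fell after PGE2 (log2 difference -0.69, limma adjusted p = 0.00911). Rgs11, a partner of the Gbeta5 subunit, averaged 0.804 ± 0.316 FPKM in dKO and 1.27 ± 0.239 FPKM in WT and did not pass. In the treated libraries Rgs11 was too low to test. It averaged 0.292 ± 0.191 FPKM after PGE1, 1.54 ± 0.00714 FPKM after PGE2 and 1.15 ± 0.143 FPKM after DMSO. PGE1 libraries (0.0949 to 0.476 FPKM) lay below DMSO libraries (0.994 to 1.27 FPKM). Rgs9, also untested, was higher after PGE1 (0.585 ± 0.206 FPKM, 91 reads) than after DMSO (0.105 ± 0.0583 FPKM, 17 reads). Of 8 tested genes of other proteins with an RGS domain, 2 (Arhgef1 and Arhgef11) fell in dKO cells and 0 rose. In that comparison 40.9% of all genes were called, 22.9% lower. After PGE1, 3 rose (Arhgef1, Arhgef12, Snx14) and 2 fell (Akap10, Snx25), where 49.1% of all genes were called. After PGE2 0 of the 8 passed by limma, where 5.57% of all genes did.

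RGS proteins act on G protein subunits. Of 21 subunit genes tested, 1 (Gng12) rose and 8 fell in dKO cells, where 40.9% of all genes were called, 5 rose and 1 (Gng12) fell after PGE1, where 49.1% were, and 0 rose and 1 (Gnb4) fell after PGE2, where 5.57% were. As a share, the subunit genes called lay near that of all genes in dKO cells and below it after PGE1. The dKO calls held 4 Galpha genes, all lower, and 5 Gbeta and Ggamma genes. The most abundant Galpha gene, Gnai2, was at 222 ± 6.52 FPKM in dKO cells, against 250 ± 4.26 FPKM in WT cells (log2 difference -0.17, limma adjusted p = 0.00851), and at 270 FPKM after PGE1 and 278 FPKM after DMSO without passing. Gnaq, the partner of Gq receptors and a target of Rgs2, was at 6.14 FPKM in dKO cells, against 8.14 FPKM in WT cells (log2 difference -0.36, limma adjusted p = 0.00190), and Gnaz, a slow relative of Gi, was 4.20-fold lower. No Galpha gene passed after PGE1 or PGE2. Gnb4, a Gbeta gene, followed the order of Rgs1: it averaged 1.69 FPKM in dKO against 4.20 FPKM in WT (limma adjusted p = 2.66e-04), 21.5 FPKM after PGE1 against 10.6 FPKM after DMSO (adjusted p = 1.02e-04), and 5.59 FPKM after PGE2 (adjusted p = 0.00408). Gngt2, a Ggamma gene, was 2.53-fold higher after PGE1 than after DMSO and 2.52-fold lower in dKO than in WT. Among receptor kinases and arrestins, which silence receptors before the G protein step, Grk5 (1.65-fold), Arrb1 (1.46-fold) and Adrbk1 (1.15-fold) rose after PGE1, 3 of 6 tested against 49.1% of all genes, and Grk5 fell after PGE2, 1 of 6 against 5.57% of all genes. Of 4 tested genes with GoLoco motifs or Ric8 function, Gpsm3 and Ric8b fell in dKO cells, Gpsm3 rose and Gpsm1 fell after PGE1, and 0 passed after PGE2. In dKO cells Adrbk1 and Grk6 rose and Adrbk2 fell, 3 of 5 tested. These GoLoco, kinase and arrestin lists hold few genes, so their counts are read gene by gene.

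**Figure D4:**
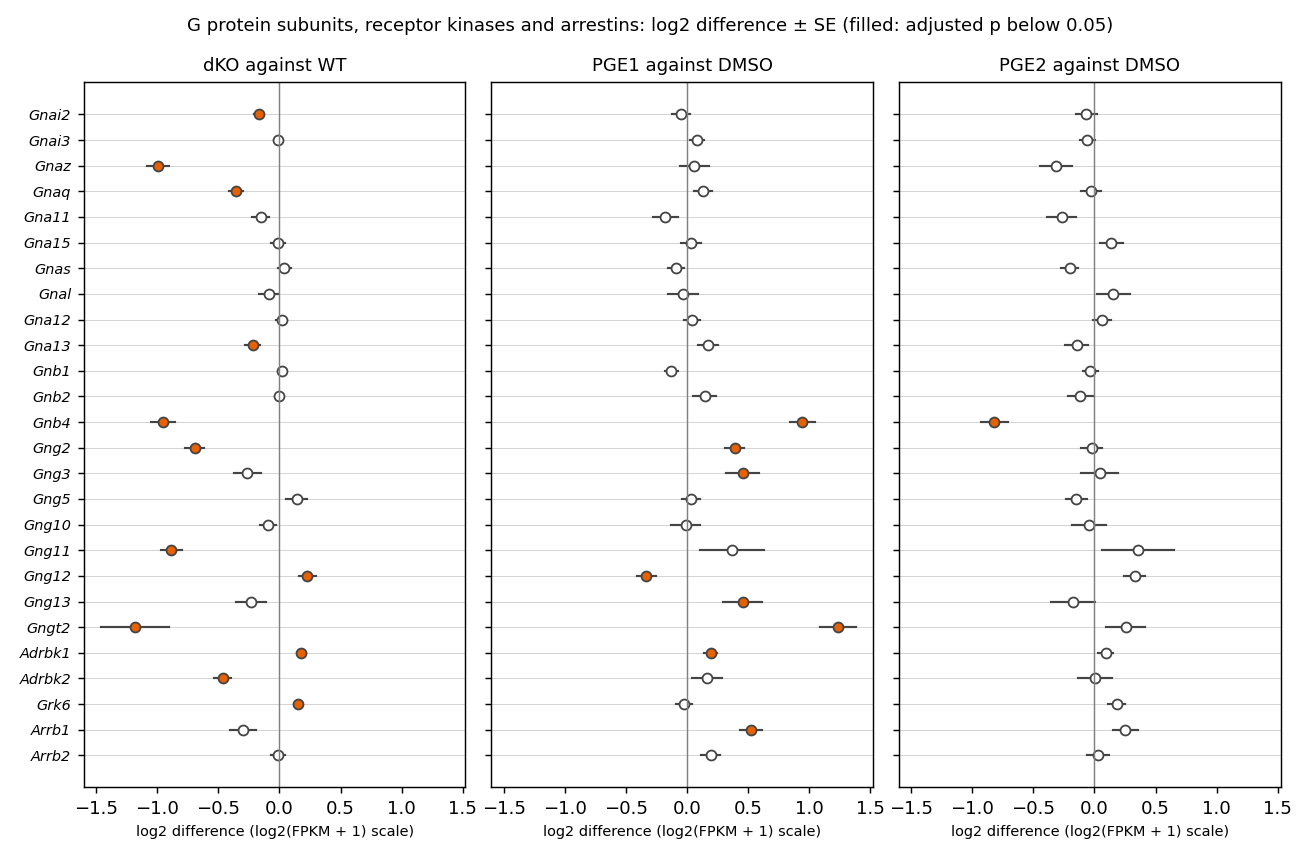
Points give the log2 difference with its SE (x axis, log2(FPKM + 1) scale) of 26 genes of G protein subunits, receptor kinases and arrestins (y axis) for dKO against WT, PGE1 against DMSO and PGE2 against DMSO, and filled points passed limma at an adjusted p below 0.05. Gnb4 is filled in all 3 panels, at -0.96, 0.94 and -0.82, while most Galpha genes lie near 0 after either prostaglandin.

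Upstream of the G proteins, Gi-coupled receptor genes moved in both directions. In dKO cells, where 22.9% of all genes were called lower and 18% higher, 7 of 11 tested fell and 1, Cxcr4, the chemokine receptor for stromal Cxcl12, rose (63.3 ± 2.75 FPKM in dKO, 46.7 ± 1.16 FPKM in WT, limma adjusted p = 2.18e-04). The receptors that fell included C3ar1 (9.53-fold), C5ar1 (7.75-fold) and Ccr2 (2.27-fold), which are also expressed by monocytes. After PGE1, where 23.6% of all genes were called higher and 25.5% lower, 7 of 13 rose and 3 fell. S1pr1, which guides egress into blood, was at 10.1 FPKM after PGE1 and 1.505 FPKM after DMSO, and Ccr7, a lymph node homing receptor, at 29.0 FPKM after PGE1 and 5.24 FPKM after DMSO (limma adjusted p = 5.86e-07 and 2.45e-06). After PGE2, C5ar1 rose and Ccr7 fell, 2 of 13, where 5.57% of all genes were called. The receptors for the prostaglandins themselves were among the genes that moved: Ptger2, coupled to Gs, was at 5.48 FPKM after PGE1 and 1.505 FPKM after DMSO, Ptgir at 13.05 FPKM after PGE1 and 6.997 FPKM after DMSO, and Gi-coupled Ptger3 at 3.04 FPKM after PGE1 and 7.97 FPKM after DMSO. Ptger4 fell to 2.41 FPKM after PGE2, against 4.83 FPKM after DMSO (limma adjusted p = 0.0105). Of the Gs-coupled receptor genes, 3 rose and 4 fell of 7 after PGE1, 0 rose and 3 fell of 7 after PGE2, and 0 rose and 4 fell of 6 in dKO cells, against the same shares of all genes.

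Known cAMP targets, a list that did not include Rgs2, showed the following. After PGE1, 7 of 10 tested rose and 3 fell, against 23.6% and 25.5% of all genes, with Crem at 27.8 FPKM after PGE1 and 4.18 FPKM after DMSO, Pde4d at 9.28 FPKM after PGE1 and 1.48 FPKM after DMSO, and Fosb at 0.841 FPKM after PGE1 and 117 FPKM after DMSO. The median log2 difference of the list was 1.09, against 0.01 over all genes tested. After PGE2, Nr4a1 and Pde4d rose and Fosb and Dusp1 fell, 4 of 10 against 5.57% of all genes (median 0.11, against 0.00 over all genes). In dKO cells Cited2 rose and Nr4a1, Sik1, Fosb and Dusp1 fell, 5 of 7 tested against 40.9% of all genes (median -0.32, against -0.01). The risen genes of this list ran from 2.25-fold (Per1) to 6.64-fold (Crem) higher after PGE1 than after DMSO. Rgs2 was 2.85-fold and Rgs1 2.43-fold higher. Whether cAMP had a part in the Rgs values was not tested.

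Across the 14 libraries, the genes whose level on the log2(FPKM + 1) scale ran most like each member were found among 10524 genes, as a description, since libraries of a group share their treatment and depth. For Rgs1 these were Lhfpl2 (Pearson r = 0.993), Sdc1 (0.992) and Ap5s1 (0.991), and for Rgs2 Hmha1 (0.996), Neurl3 (0.996) and Bcl6 (0.993). Neurl3 averaged 8.99 FPKM in dKO, 134 in PGE1, 29.0 in PGE2, 38.1 in DMSO and 20.0 FPKM in WT, the order of Rgs2. For Rgs10 they were Pld4 (0.984), Anxa1 (0.980) and Dgkz (0.980), and for Rgs14 Clec5a (0.972), Gstt1 (0.965) and Cxcl3 (0.964). For Rgs18 they were Sdccag8 (0.958), Tmem86b (0.954) and Nxf1 (0.951). The gene most like Rgs19 was Rgs14 (0.940), followed by D6Wsu163e (0.929) and Gstt1 (0.925).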

How the data were processed

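Levels of 24463 genes in 14 libraries were deposited as FPKM, made by the authors with CASAVA 1.8, TopHat and Cufflinks on mouse build mm9, per the submitters' processing notes; no source used here gives the strand handling, read length or annotation. FPKM were whole multiples of 1 read's worth for all of the 19057 genes above 0 (100.0%, tolerance 0.0001 reads), which gave read numbers and depths (11328491 to 20628189 reads in genes) but no count test. Groups came from sample titles. Genes averaging 1 FPKM or more were tested two-sided on log2(FPKM + 1), a scale that understates changes of low genes, with limma 3.58.1 (lmFit, eBayes with trend) in R 4.3.3, Benjamini-Hochberg over all genes and a threshold of 0.05. The 6 dKO and WT libraries, the 8 treated libraries, and the DMSO and WT libraries were separate fits; folds are ratios of group means. The plan gave members below the minimum (Rgs3, Rgs16) a two-sided exact permutation test; read ratios have exact 95% binomial intervals, and floors are 3 reads per library. The fits were tested on simulated data. Other steps ran in Python 3.11.15 (matplotlib 3.10.9, scipy 1.17.1, pandas 2.3.3, numpy 2.4.6). The alternatives were pseudocounts of 0.1 and 0.5, no minimum and a minimum of 5 FPKM, quantile and median-of-ratios scaling, a replicate block, all 14 libraries in 1 fit and leaving out each library; averaging WT into 1 sample was added after seeing the data. The members and gene lists were chosen with earlier results of these data known. Named were the 8 members, the 3 most similar genes per member, and up to 4 genes per list and comparison with the smallest p among those called. G protein, kinase and receptor genes at 5 FPKM or more and genes counted alone in a list were also named. The chromosome 1 neighbours, Gngt2, Rgs9, Rgs11, Crem, Per1, Itga2b, Nkg7, Vpreb1, Igll1, Gzmb and Neurl3's levels were added after their values were seen. So were Xist and the other B cell, T cell and natural killer cell genes named. The sex-linked counts after PGE1 and PGE2 were added then too.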

Additional observations from a re-analysis of the deposited data

How the results depend on the processing

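None of 468 recomputed values of the 6 tested members over 5 comparisons changed direction, but under some settings none could. No minimum, a minimum of 5 FPKM, all 14 libraries in 1 fit and leaving out a library of neither compared group keep the log2 difference as it was. The replicate block also kept it for dKO against WT and PGE1 against DMSO (Rgs1 at -2.17 and 1.24). For these settings only the call could move. Of the 468 values, 428 stayed on their side of the threshold, 34 no longer passed and 6 newly passed. The call held throughout for 17 of the 30 values. For dKO against WT, 4381 genes were called, against 768 with the WT libraries as 1 sample. For PGE2 against DMSO, 1 member fell, against 2 with no minimum level (Rgs16 added) or all 14 libraries in 1 fit (Rgs2 added), and 0 to 2 when leaving out 1 library. There 626 genes were called, against 269 with the replicate block, 1207 with all 14 libraries in 1 fit, and 125 to 1218 when leaving out 1 library. For PGE1 against PGE2, 1 member was lower, against 2 after median-of-ratios scaling and 0 to 2 when leaving out 1 library. For DMSO against WT, 1 member (Rgs18) was lower, against 0 with no minimum, with the replicate block, in 1 fit of 14 libraries and with WT as 1 sample, and 0 to 1 when leaving out 1 library; 6296 genes were called, against 2543 with WT as 1 sample. The causes of these shifts were not tested. Whether replicate numbers pair the samples was not settled, since deviations from the mean of so few libraries are tied to each other. Deviations of same-numbered libraries correlated at 0.0656, 0.130 and -0.0190 for dKO and WT and at -0.204, -0.375 and 0.383 for PGE1 and DMSO. Those of unlike numbers ran from -0.114 to 0.0545 and from -0.504 to 0.541. With the replicate block, Rgs18 also missed the threshold for PGE1 against PGE2 (limma adjusted p = 0.0697) and for DMSO against WT (0.0531), and no other member lost or gained a call. Rgs3 and Rgs16, with 1 to 215 reads per group, are limited by depth.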
